A study of Mus musculus with 6 samples.

Results

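Affymetrix arrays were hybridised with retinal RNA of mouse pups at postnatal day 7, 3 arrays for knockout mice and 3 for wildtype mice. Both groups are labelled C57BL/6, and no treatment is named for either. Nothing says whether retinas were pooled or how animals were divided over arrays, so p-values reflect only how far these samples differ, which may be technical. Each array gives 1 linear signal intensity for each of 22626 probe sets that are not controls, and a probe set is a group of probes read together for 1 transcript. The subject here is the nuclear-encoded subunits of the respiratory chain and of ATP synthase. They were found by symbol alone: every probe set whose single annotated symbol starts with Ndufa, Ndufb, Ndufc, Ndufs or Ndufv (Ndufaf left out), Uqcr, Cox4i, Cox5, Cox6, Cox7, Cox8 or Atp5, or is Sdha, Sdhb, Sdhc, Sdhd or Cyc1. That gave 151 probe sets of 80 genes, among 12393 genes with a single annotated symbol. Of these, 34 genes belong to complex I, 4 to complex II, 9 to complex III, 16 to complex IV and 17 to complex V. A further 8 probe sets each carried several symbols, with a match among them, and were not used. Each gene was represented by its brightest probe set.

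The respiratory chain passes electrons from NADH, through complex I, and from succinate, through complex II, to ubiquinone, then through complex III and cytochrome c to oxygen at complex IV. Complexes I, III and IV pump protons across the inner mitochondrial membrane, and complex V, the ATP synthase, uses the gradient to make ATP. Most subunits are encoded in the nucleus, and a small set of core subunits is encoded in mitochondrial DNA. Photoreceptors are among the most energy-demanding cells of the body and pack mitochondria into their inner segments. At this age rods are born but their outer segments are still growing. In whole retina, fewer cells of a type and less RNA per cell cannot be told apart.

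Trimmed mean signals, the averages after removing the extreme probe sets, were 263 to 304 on the knockout arrays and 171 to 312 on the wildtype arrays, so arrays were scaled to a common trimmed mean before any comparison. With so few arrays, all values carry limited precision. Knockout array 1 stood apart: across tested probe sets it correlated with the rest at 0.914 to 0.936, whereas every other array reached at least 0.972 with one of the rest. The Actb 3' to 5' ratio, a sign of RNA integrity, was 2.17, 1.69 and 1.90 on knockout arrays 1 to 3 and 1.64, 1.44 and 1.59 on wildtype arrays 1 to 3 (exact two-sided permutation p = 0.1, the smallest that 3 against 3 arrays can give). On this ratio every knockout array lay above every wildtype array, and its part in the member values was not tested. The Gapdh ratio was 1.18, 0.88 and 1.16 on knockout arrays and 0.98, 0.82 and 0.88 on wildtype arrays, with overlapping groups (exact two-sided permutation p = 0.2). The tissue label was checked on rod genes, and the rod arrestin Sag had a scaled signal of 6190.3 to 7052 on knockout arrays and 7344 to 7886 on wildtype arrays.

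The subunit transcripts differed little between the groups. Of the 80 genes, 77 had a mean scaled signal above the filter of 62.4 and were tested. A positive log2 fold change (knockout minus wildtype) was found for 20 of 34 genes in complex I, 1 of 4 in complex II, 5 of 9 in complex III, 4 of 13 in complex IV and 6 of 17 in complex V. The median log2 fold change was -0.01 over all 77 genes, beside 0.00031 over all 13575 tested probe sets. By complex the medians were 0.01 for complex I, -0.31 for complex II, 0.01 for complex III, -0.05 for complex IV and -0.04 for complex V. Individual genes ran from -0.37 for Sdhd to 0.53 for Cox4i2, and 68 of 77 lay within 0.25 of 0.

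None of the 77 genes passed limma's Benjamini-Hochberg adjusted p of 0.05, where 0.0147% of all tested probe sets did. The lowest adjusted p of a member was 0.999. At an unadjusted p under 0.05 there were 2 members, Sdhc and Atp5b, against 3.82% of all tested probe sets. The 3 knockout arrays lay above the 3 wildtype arrays for 1 member, Uqcrfs1, where 4.05% of all tested probe sets did so. They lay below for 4 members, Ndufb1, Sdhc, Cox8c and Atp5b, where 5.05% of all tested probe sets did so. A positive log2 fold change was found for 36 of 77 members (46.8%) and for 50.1% of all tested probe sets. With median scaling in place of the trimmed mean, 56 of 77 members and 66.5% of all tested probe sets were positive, and that scaling shifted the median over all probe sets to 0.088.

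The intervals show how large a difference these arrays leave possible. The 95% interval of the fold change lay wholly within 1.5-fold of no difference for 60 of 77 members (77.9%), compared with 50.4% of all tested probe sets and 80.7% of the 1755 tested probe sets with a mean signal above 1000. It lay within 2-fold for 76 of 77, the exception being Cox4i2. Standard errors of the log2 fold change ran from 0.088 to 0.34, with a median of 0.14 against 0.20 over all tested probe sets.

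**Figure D1:**
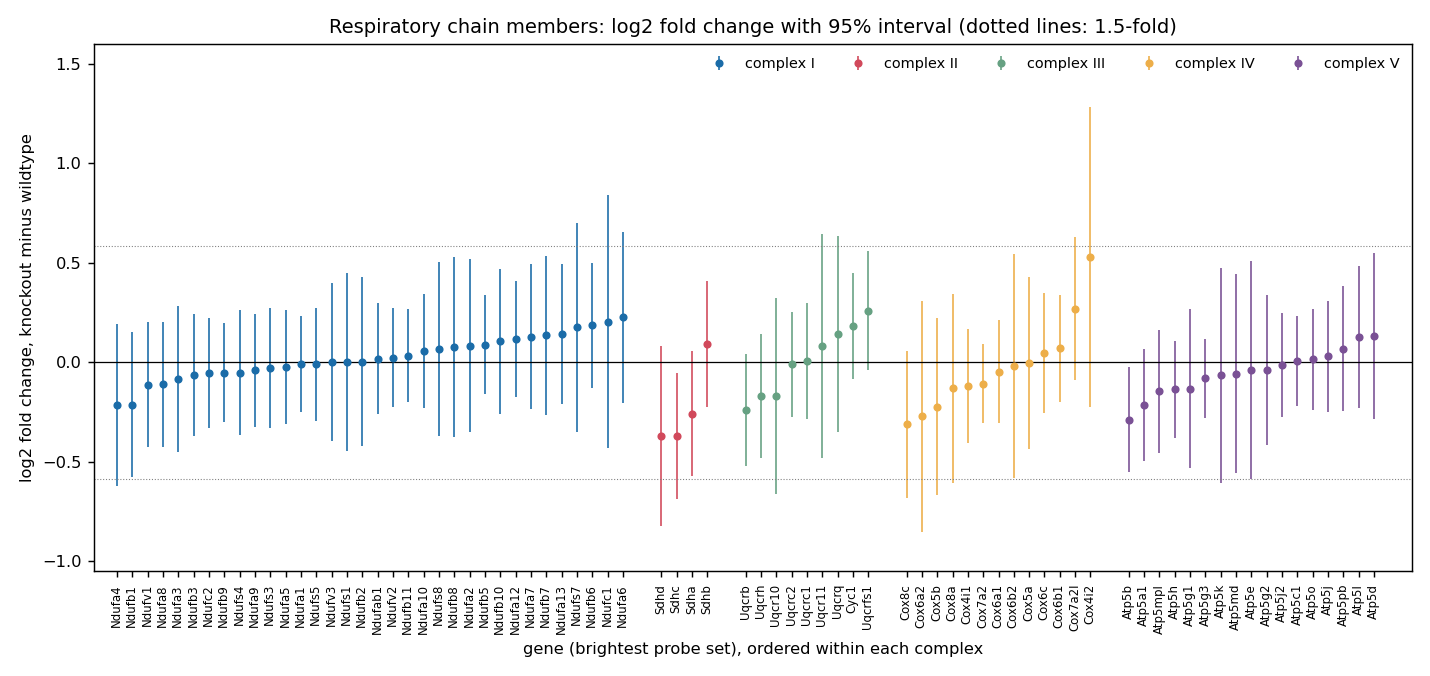
Log2 fold change (knockout minus wildtype, y axis) of the 77 tested genes, ordered within complexes I to V on the x axis, with points for the estimate and bars for the 95% interval from limma. The dotted lines mark 1.5-fold, and the intervals of 60 genes lie between them, while Cox4i2 has the widest interval of all.

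The arrays of the knockout group did not move together. Knockout array 1 was the highest of the 6 arrays for 38 of 77 members (49.4%), compared with 25.3% of all tested probe sets. Knockout arrays 2 and 3 were the lowest for 26 and 20 members, and wildtype array 3 was the lowest for 15. The matching shares of all tested probe sets were not computed for the lowest array. After centring each gene on its own mean over the arrays, the median over members was 0.15, -0.11 and -0.06 on knockout arrays 1 to 3 and 0.03, 0.01 and -0.04 on wildtype arrays 1 to 3. The groups overlapped, and the knockout group was spread more widely (SD of 0.13 in knockout and 0.033 in wildtype, n = 3 each). Over all tested probe sets the same medians lay between -0.01 and 0.02 on every array. Other measures also set knockout array 1 apart: the Actb ratio was highest there, the summed signal of 8 rod genes was 23106 there and 26754 to 28714 on the other 5 arrays, and that of 5 microglia genes was 1297 there and 689 to 857 on the other 5. Their part in the member values was not tested.

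Without knockout array 1 the median of the members was -0.10, with 19 of 77 positive, while the median of all tested probe sets was -0.0060 and 48.9% were positive. The medians of complexes I to V were then -0.08, -0.29, -0.13, -0.20 and -0.10. Without both wildtype array 2 and knockout array 1, 16 of 77 members were positive, beside 49.0% of all tested probe sets. This pair had the highest 18S control signals (609 on knockout array 1 and 2573 on wildtype array 2, against 38.8 to 54.9 on the rest). No member passed the adjusted threshold in either setting. With 1 array left out, groups separate more often because fewer arrays are compared. Without knockout array 1 the groups did not overlap for 23 of 77 members (29.9%) and for 18.5% of all tested probe sets. Without any 1 of the other 5 arrays, this held for 10 to 14 members, a share below that of all tested probe sets in each of these settings. Without wildtype array 2 and knockout array 1 together it held for 32 members (41.6%) and for 25.9% of all tested probe sets.

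**Figure D2:**
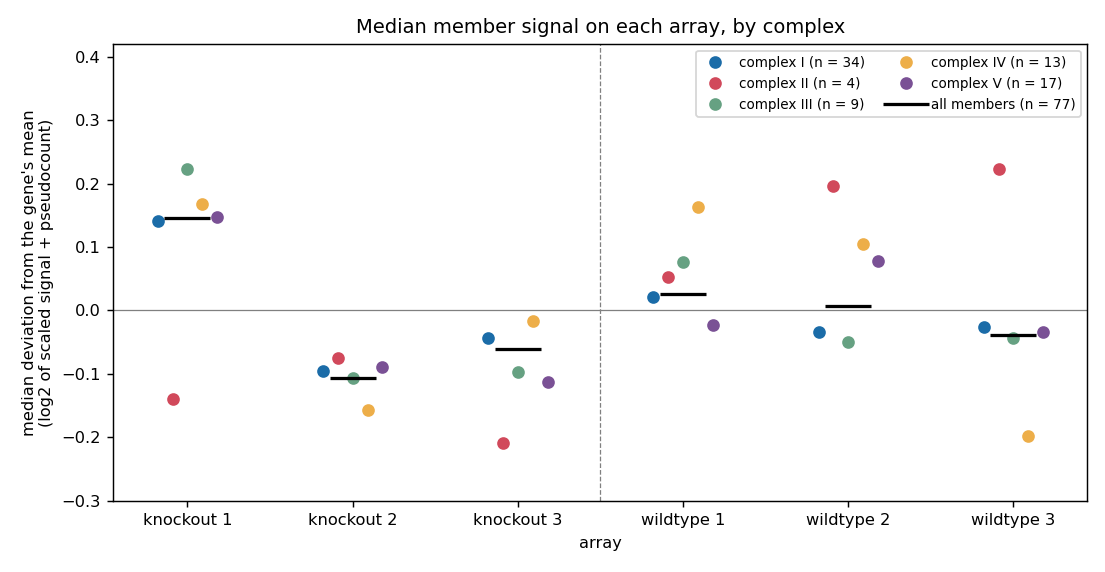
Median over genes of the deviation from each gene's own mean (y axis, log2 units) on the 3 knockout arrays and the 3 wildtype arrays (x axis), with coloured points for complexes I to V and black bars for all 77 members. Knockout array 1 lies at 0.15 for all members, above every other array, while its complex II point lies at -0.14.

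Complex II, succinate dehydrogenase, has no subunit encoded in mitochondrial DNA and also works in the citric acid cycle. It was the complex with the lowest median, -0.31, and 3 of its 4 genes had negative log2 fold changes. Sdhc, a membrane anchor subunit, had scaled signals of 897, 952 and 782 on knockout arrays 1 to 3 and 1060.3, 1225 and 1124 on wildtype arrays 1 to 3. The knockout values were all under the lowest wildtype value, a log2 fold change of -0.37 ± 0.14 (SE; unadjusted p = 0.027, limma adjusted p = 0.999). Sdhd, the other membrane anchor, had 1086.5, 1122 and 938 on knockout arrays and 993, 1738 and 1447 on wildtype arrays. Wildtype array 1 fell among the knockout arrays, and the log2 fold change was -0.37 ± 0.20 (SE). Sdha, the flavoprotein that oxidises succinate, had 1547, 1638 and 1953 on knockout arrays and 2042, 1837 and 2266 on wildtype arrays, a log2 fold change of -0.26 ± 0.14 (SE) with overlapping groups. Sdhb, the iron-sulfur subunit, had 1905, 1700 and 1576 on knockout arrays and 1686, 1786 and 1398 on wildtype arrays, and its log2 fold change of 0.09 ± 0.14 (SE) had the opposite sign.

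The centred median of complex II was -0.14, -0.08 and -0.21 on knockout arrays 1 to 3 and 0.05, 0.20 and 0.22 on wildtype arrays 1 to 3, so the complex did not follow the other members on knockout array 1. With only 4 genes this is a description of these arrays. The second probe sets were closer to 0: -0.10 for Sdhc, -0.05 for Sdha and -0.32 for Sdhd, all with overlapping groups. The median of the complex was -0.08 with the second brightest probe sets and -0.19 with the mean of all probe sets of each gene. Of the 8 rod genes tested beside it, 6 also had negative log2 fold changes, among them the disc rim gene Rom1 at -0.34 ± 0.12 (SE; limma adjusted p = 0.999). The 8 rod genes ran from -0.41 to 0.26, the value of Rcvrn, with a median of -0.12. The summed signal of the 8 rod genes was 23106, 27230.4 and 26803 on knockout arrays 1 to 3 and 26754 to 28714 on wildtype arrays, and its part in the complex II values was not tested.

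Promoter sequences were searched for letters known from regulators of these genes. Nuclear respiratory factor 1 (NRF-1), ETS factors such as GABP, and YY1 are known activators of respiratory chain genes. RefSeq promoter windows (build GRCm38.p6, 250 bases before to 50 after the start site) were found for 65 of the 80 genes and searched on both strands for 4 motifs. The letters GCGCANGCG, taken for NRF-1, were held by 17 of 65 members (26.2%), 16.7% of 6656 tested genes with a window and 7.03% of all 27025 genes with one. The ETS letters CCGGAAG were held by 26.2% of members, 21.1% of tested genes and 9.93% of all genes. The YY1 letters AAGATGGCG were held by 6 members (9.23%), 3.86% of tested genes and 1.64% of all genes. The TATA letters TATAAA were held by 7 members (10.8%), 9.0% of tested genes and 15.7% of all genes. NRF-1 matches were found in 5 of 31 complex I windows, 2 of 3 in complex II, 2 of 5 in complex III, 1 of 11 in complex IV and 7 of 15 in complex V. A match is a description of these letters and not a bound site.

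Among the named members, 6 held the NRF-1 letters, and 60 bases around the first match of each are printed 5′ to 3′ on the gene's own strand, with the matching letters in capitals. All 6 genes lie on the minus strand, in order at chr13:74350304-74350363, chr9:50603894-50603953, chr15:82354242-82354301, chr11:115420026-115420085, chr15:102671055-102671114 and chr2:73911279-73911338.
Sdha: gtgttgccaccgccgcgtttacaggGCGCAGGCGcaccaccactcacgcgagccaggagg
Sdhd: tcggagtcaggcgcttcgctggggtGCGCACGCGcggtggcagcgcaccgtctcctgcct
Ndufa6: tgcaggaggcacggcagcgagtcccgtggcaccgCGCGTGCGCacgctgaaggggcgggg
Atp5h: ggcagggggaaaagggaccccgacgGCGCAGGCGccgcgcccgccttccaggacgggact
Atp5g2: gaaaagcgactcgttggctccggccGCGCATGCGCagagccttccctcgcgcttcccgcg
Atp5g3: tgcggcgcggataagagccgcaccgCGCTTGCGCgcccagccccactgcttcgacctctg
The match started 98 bases before the start site in Sdha, whose window held 3 matches, and 79 bases before it in Sdhd. It started 141 bases before it in Atp5h and 42 in Atp5g2, and 24 bases after it in Ndufa6 and 13 in Atp5g3. In Atp5g2 a match on each strand overlapped, which gives the longer run of capitals.

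The presence of the NRF-1 letters did not go with a shift between the groups. The median log2 fold change was -0.02 over the 17 tested members with the letters and 0.0013 over the 45 tested members whose window lacked them, with ranges of -0.37 to 0.23 and -0.29 to 0.27.

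**Figure D3:**
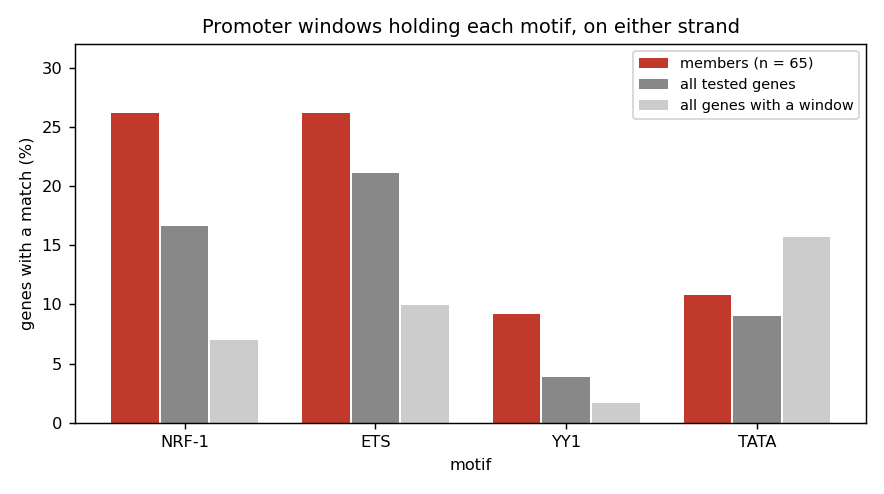
Share of genes whose promoter window holds each motif on either strand (y axis, percent) for 4 motifs on the x axis, with bars for the 65 members, for all tested genes and for all genes with a window. The NRF-1 letters are held by 26.2% of members, 16.7% of tested genes and 7.03% of all genes.

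Complex I, NADH dehydrogenase, is the entry point for electrons from NADH and the largest of the complexes. All 34 of its genes were tested, their log2 fold changes ran from -0.21 to 0.23, and the median was 0.01. The catalytic core subunits that carry the flavin and the iron-sulfur clusters were represented by 6 of 7 listed genes, of which 4 had positive values and none passed the test. Their log2 fold changes were -0.11 for Ndufv1, 0.18 for Ndufs7, 0.07 for Ndufs8, 0.02 for Ndufv2, -0.03 for Ndufs3 and 0.0027 for Ndufs1. Ndufs7 had 2091 on knockout array 1, against 1019 and 1363 on the other 2 knockout arrays and 1182 to 1428 on the wildtype arrays. The remaining knockout arrays overlapped with the wildtype arrays.

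Among the accessory subunits, which surround the core, the smallest unadjusted p belonged to Ndufb6. It had scaled signals of 1227, 985 and 1116 on knockout arrays and 989.8, 997 and 921 on wildtype arrays, a log2 fold change of 0.19 ± 0.14 (SE; unadjusted p = 0.21). Ndufb1 had 175, 170.2 and 182.3 on knockout arrays and 232, 189.9 and 201 on wildtype arrays. Its groups did not overlap, and its log2 fold change was -0.21 ± 0.16 (SE; unadjusted p = 0.22). Ndufa6, with the highest value of the complex, had 1239, 736 and 1017 on knockout arrays and 893, 805 and 799 on wildtype arrays, so that the lowest and the highest arrays were both knockout. Ndufa4, a subunit first assigned to complex I and now placed in complex IV, had 3158, 1893 and 2774 on knockout arrays and 3279, 2752 and 2883 on wildtype arrays. Its log2 fold change of -0.21 ± 0.18 (SE) was the lowest of the complex, and knockout array 2 was its lowest array. The other 24 accessory genes lay between -0.11 for Ndufa8 and 0.20 for Ndufc1.

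Complex III carries electrons from ubiquinol to cytochrome c through cytochrome b, which mitochondrial DNA encodes, and through the nuclear-encoded Cyc1 and Rieske protein. All 9 of its genes were tested, 5 positive and 4 negative. Uqcrfs1, the Rieske iron-sulfur protein, had 1905, 1679.7 and 1685 on knockout arrays and 1554, 1293 and 1553 on wildtype arrays. By brightest probe set, it was the only one of the 77 members with every knockout array above every wildtype array. Its log2 fold change was 0.26 ± 0.13 (SE; unadjusted p = 0.080, limma adjusted p = 0.999). Cyc1, the cytochrome c1 heme protein, had 2636, 2352 and 2242 on knockout arrays and 2247, 2109 and 1997 on wildtype arrays. Only knockout array 3 fell below a wildtype array, by a narrow margin, and the log2 fold change was 0.18 ± 0.12 (SE).

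The subunits of complex III without a redox group had no common direction. Uqcrb, which binds ubiquinone, had 5999, 5394 and 5828 on knockout arrays and 6931, 7925 and 5657 on wildtype arrays, a log2 fold change of -0.24 ± 0.13 (SE). Wildtype array 3 lay among the knockout arrays. The core scaffold proteins Uqcrc1 and Uqcrc2 had 0.0073 and -0.01. Uqcrh, Uqcr10, Uqcrq and Uqcr11 had -0.17, -0.17, 0.14 and 0.08.

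Complex IV, cytochrome c oxidase, has several nuclear subunits that come in a ubiquitous and a tissue-restricted form. The ubiquitous forms were close to 0: Cox4i1 had a log2 fold change of -0.12, Cox5a of -0.0020, Cox5b of -0.22, Cox6a1 of -0.05, Cox6b1 of 0.07, Cox6c of 0.05, Cox7a2 of -0.11 and Cox8a of -0.13. Their standard errors ran from 0.089 to 0.21. Cox7c, another ubiquitous subunit, was measured by 2 dim probe sets, the brighter at 28.2, 35.7 and 33.3 on knockout arrays and 23.2, 23.1 and 25.1 on wildtype arrays. It stayed below the filter and was not tested.

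Cox7a2l, a relative of Cox7a2 that helps join complexes III and IV into supercomplexes, had 1508, 1315 and 1331 on knockout arrays and 1409, 997 and 1062 on wildtype arrays. Its log2 fold change was 0.27 ± 0.16 (SE; unadjusted p = 0.12), and wildtype array 1 lay among the knockout arrays. Its other probe sets gave values down to 0.0058. Cox4i2, an oxygen-sensitive form found in lung and in the mural cells of vessels, had 187, 134 and 181 on knockout arrays and 154, 154 and 51.3 on wildtype arrays. Wildtype array 3 was low, the groups overlapped, and the log2 fold change was 0.53 ± 0.34 (SE; 95% interval -0.23 to 1.28). The pericyte gene Rgs5 had 881 to 930.1 on knockout arrays and 702 to 755 on wildtype arrays (log2 fold change 0.30 ± 0.13, SE; limma adjusted p = 0.999), and 4 of 5 vessel genes had positive values. The 5 vessel genes ran from -0.22 to 0.30, the value of Rgs5, with a median of 0.03. Their summed signal was 1797 to 2342 on knockout arrays and 1618 to 2004 on wildtype arrays. Their part in the Cox4i2 value was not tested.

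Cox8c, a form known from testis, had 242, 205 and 214 on knockout arrays and 292, 299.9 and 243 on wildtype arrays, with no overlap and a log2 fold change of -0.31 ± 0.17 (SE; unadjusted p = 0.090). The gap between the highest knockout and the lowest wildtype array was small. Cox6b2, also known from testis, had 99.6, 58.6 and 54.7 on knockout arrays and 90.3, 59.2 and 63.5 on wildtype arrays, a log2 fold change of -0.02 ± 0.25 (SE). Cox6a2, the heart and skeletal muscle form, had 62.3, 66.7 and 64.2 on knockout arrays and 86.4, 119 and 51.2 on wildtype arrays, a log2 fold change of -0.27 ± 0.26 (SE). The muscle forms Cox7a1 and Cox8b lay below the filter, at 13.4 to 29.3 and 7.05 to 18.1 on knockout arrays and 21.3 to 36.5 and 12.1 to 18.02 on wildtype arrays. Of 11 skeletal muscle markers, 7 were also below the filter, and their summed signal was 352 to 437 on knockout arrays and 500 to 755 on wildtype arrays. All 4 tested muscle markers had negative log2 fold changes, from -0.56 to -0.11, and their part in the Cox6a2 value was not tested.

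**Figure D4:**
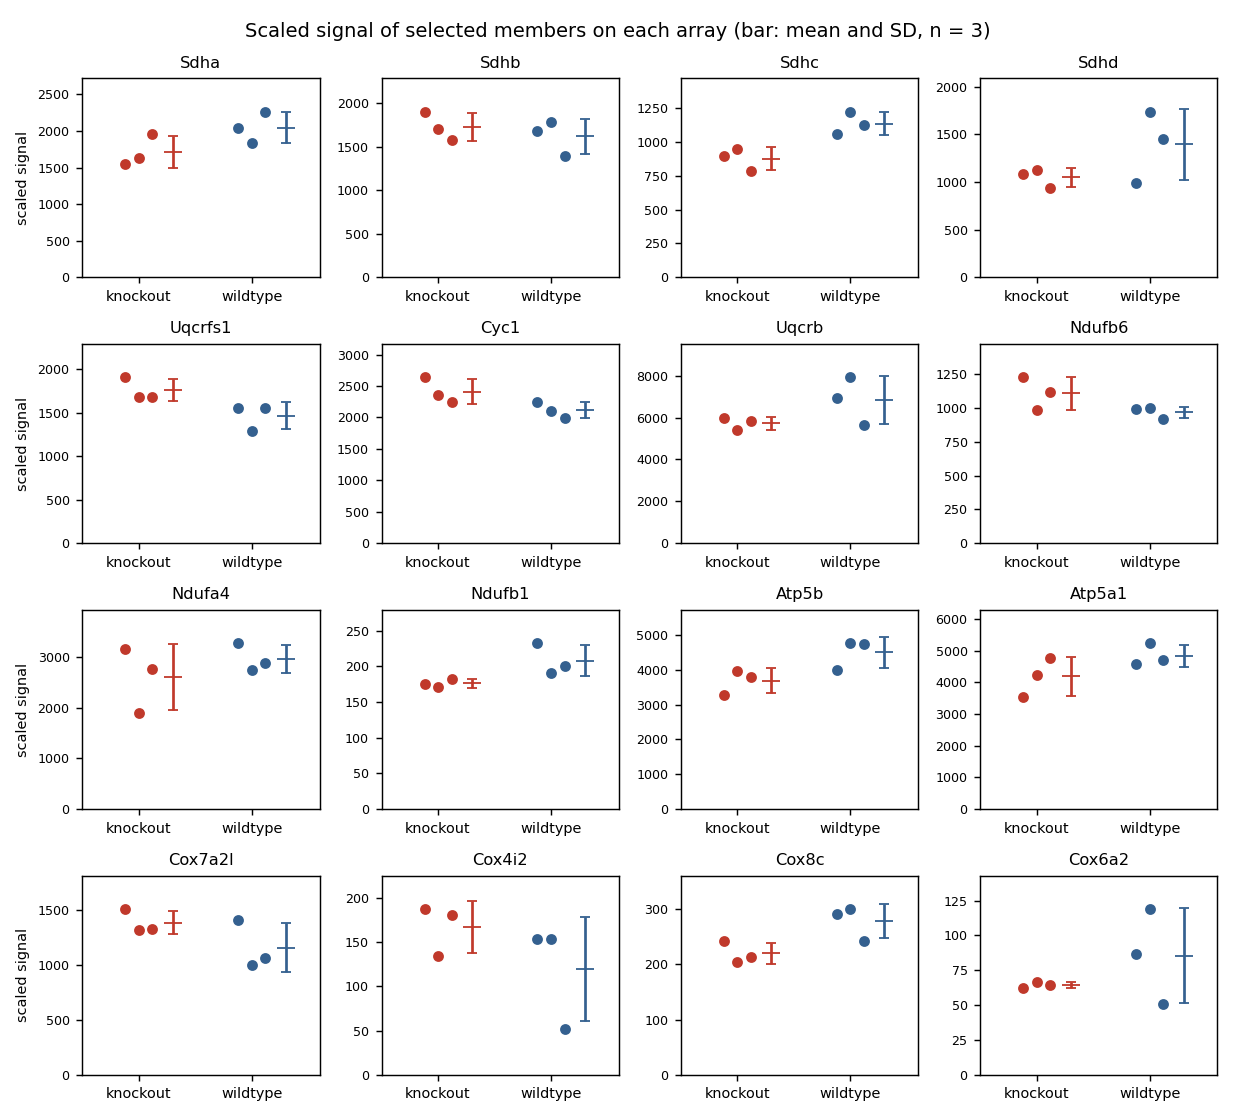
Scaled signal (y axis, linear, from 0) of 16 members on the 3 knockout arrays (red) and 3 wildtype arrays (blue), with points for arrays and bars for the mean and SD (n = 3). Uqcrfs1 lies higher on all knockout arrays, Sdhc, Atp5b, Ndufb1 and Cox8c lie lower on all of them, and the other genes overlap.

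Complex V makes ATP in its F1 head, which is driven by the membrane rotor. All 17 of its genes were tested, 6 positive and 11 negative, with a median of -0.04. Atp5b, the catalytic beta subunit of the head, had 3283, 3981 and 3790 on knockout arrays and 3997, 4764 and 4745 on wildtype arrays. The groups did not overlap, although knockout array 2 and wildtype array 1 were nearly equal, and the log2 fold change was -0.29 ± 0.12 (SE; 95% interval -0.55 to -0.02; unadjusted p = 0.036, limma adjusted p = 0.999). Atp5a1, the alpha subunit that alternates with beta in the head, had 3544, 4229 and 4777 on knockout arrays and 4561, 5229 and 4686 on wildtype arrays, a log2 fold change of -0.21 ± 0.13 (SE) with overlapping groups. The other head subunits Atp5c1, Atp5d and Atp5e had 0.0067, 0.13 and -0.04. Atp5d, with 3899 on knockout array 1 and 2355 and 2504 on the other 2 knockout arrays, against 2371 to 2869 on wildtype arrays, turned to -0.10 without knockout array 1.

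Atp5h, a subunit of the peripheral stalk, had 3026, 2889.96 and 3029.6 on knockout arrays and 3582, 3246 and 3028 on wildtype arrays, a log2 fold change of -0.14 ± 0.11 (SE). Its second probe set had 0.16. The rotor's c subunit is encoded by 3 genes that give the same mature protein. Atp5g1 had 1607, 1023 and 1170.4 on knockout arrays and 1249.6, 1474 and 1382 on wildtype arrays. Atp5g2 had 2398, 1701 and 1557 on knockout arrays and 1828, 2055 and 1828 on wildtype arrays. For both, knockout array 1 was the highest and the other 2 knockout arrays were the lowest. Atp5g3 had 5409, 5383 and 5313 on knockout arrays and 5640.2, 6021 and 5395 on wildtype arrays, a tight knockout group that overlapped with wildtype array 3. The log2 fold changes of these genes were -0.13 ± 0.18, -0.04 ± 0.17 and -0.08 ± 0.09 (SE). The other 8 genes of the complex lay between -0.14 for Atp5mpl and 0.13 for Atp5l.

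Several genes were measured more than once, which shows how far a value depends on the probe set. Of 41 genes with more than 1 tested probe set, 22 had the same sign in all of them and 19 did not. The range between the probe sets of a gene had a median of 0.15 and exceeded 0.5 for 2 genes. Ndufab1, the mitochondrial acyl carrier protein that is also a complex I subunit, had 0.02 in its brightest probe set and -0.84 in a dim one. The dim probe set had 101, 223 and 64.2 on knockout arrays and 223, 264 and 184 on wildtype arrays. Uqcr10 had -0.17 in its brightest probe set and up to 0.36 in the others. Atp5k had -0.07 in its brightest probe set and 0.27 in its second. In the second, every knockout array (3019, 2167 and 2565) lay above every wildtype array (2107, 2146 and 2103). By contrast, the values of Sdhd, Cox8a, Ndufs7, Atp5pb and Ndufb2 differed by at most 0.051 between probe sets.

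**Figure D5:**
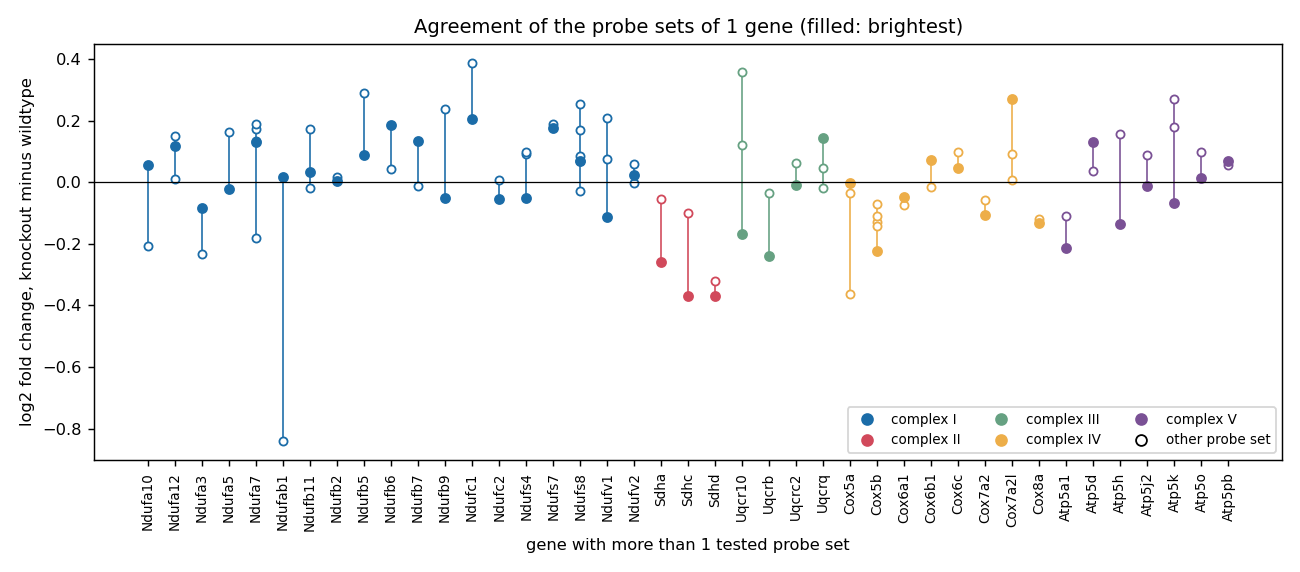
Log2 fold change (knockout minus wildtype, y axis) of every tested probe set of the 41 genes that have more than 1 (x axis), with filled points for the brightest and open points for the rest. All but 2 genes span under 0.5, and Ndufab1 spans from -0.84 to 0.02.

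Of the listed genes that build, feed and regulate the chain, none passed the test in either direction (limma adjusted p of 0.05). Of 29 tested assembly factor genes, 18 were positive and 11 negative, with a median log2 fold change of 0.06. In 4 of them (13.8%), Sco2, Cox20, Cox17 and Coa6, every knockout array lay above every wildtype array, beside 4.05% of all tested probe sets. Sco2, a copper chaperone for complex IV, had 122, 64.1 and 80.0 on knockout arrays and 49.1, 56.7 and 45.8 on wildtype arrays. Its log2 fold change was 0.60 ± 0.24 (SE; unadjusted p = 0.033). Every wildtype value of Sco2 lay under the filter of 62.4, so the gene was tested only because of its knockout values. Its place among these 4 genes therefore rests on a dim probe set near the filter. Cox20, a chaperone of the mitochondrial subunit that receives this copper, had 1437, 970.01 and 1059 on knockout arrays and 897, 906 and 886 on wildtype arrays, a log2 fold change of 0.34 ± 0.17 (SE). Cox17 and Coa6, which also serve the copper supply of complex IV, had 0.27 ± 0.15 and 0.19 ± 0.15 (SE). Sco2, Cox20 and Cox17 were each highest on knockout array 1. Cox19 and Coa5, complex IV factors of the same list, had -0.20 ± 0.31 and -0.16 ± 0.16 (SE), with overlapping groups. Of 19 tested genes of electron carriers, ubiquinone synthesis and nucleotide transport, 11 were positive, with a median of 0.03. In that group, Etfa, an electron transfer flavoprotein subunit, had 0.23 and Coq6, a ubiquinone synthesis enzyme, had 0.35. Of 16 citric acid cycle and pyruvate genes, 7 were positive, with a median of -0.03, and Idh3a and Sucla2 had -0.19 and 0.17.

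Of 16 tested genes of mitochondrial biogenesis, 11 were positive, with a median of 0.14, and their summed signal was 6222, 5921 and 6010.1 on knockout arrays 1 to 3 and 5337, 5024 and 5698 on wildtype arrays 1 to 3. Ssbp1, which coats single-stranded mitochondrial DNA, had 1451, 1014 and 1039 on knockout arrays and 849, 647 and 950 on wildtype arrays, a log2 fold change of 0.51 ± 0.20 (SE; unadjusted p = 0.028) without overlap. A sum weights bright genes most, and Ssbp1 had means of 1168 in knockout and 815 in wildtype. The regulators Nrf1, Gabpa and Tfb2m and the polymerase Polg had log2 fold changes of -0.01, -0.00026, -0.02 and 0.05, the smallest changes of the list. Tfam, Ppargc1a, Polg2, Gabpb1, Polrmt, Tfb1m, Ppargc1b and Esrra had 0.13, 0.15, 0.18, 0.18, 0.20, 0.23, 0.23 and 0.34, with overlapping groups. Yy1 and Lonp1 had 0.07 and -0.12, also with overlapping groups. Pprc1, a coactivator of the PGC-1 family, had 102, 96.6 and 90.8 on knockout arrays and 120.4, 137 and 115 on wildtype arrays, a log2 fold change of -0.31 ± 0.17 (SE), without overlap. A single probe set of a gene encoded in mitochondrial DNA was named, for mt-Nd5, a core complex I subunit. It had 3344, 4368 and 3981 on knockout arrays and 4655, 4295 and 3667 on wildtype arrays, a log2 fold change of -0.11 ± 0.13 (SE), with overlapping groups.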

How the data were processed

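The authors deposited 1 linear signal intensity for each probe set on each array. The submitters' processing notes name MAS5, and its version and settings are not given in the sources used here. The 64 control probe sets were set aside from 22690. Each array was scaled to a common mean after trimming 2% at each end, 19.1 (the 20th percentile of scaled signals) was added, and log2 was taken. The 13575 probe sets with a mean scaled signal above 62.4 (the 40th percentile) were tested with limma 3.58.1 in R 4.3.3 (lmFit and eBayes with an intensity trend), knockout minus wildtype, with Benjamini-Hochberg adjustment over all of them. Fold changes are on the log2(signal + 19.1) scale, which understates changes of dim probe sets. The procedure was also run on simulated arrays with known changes and independent noise for each probe set. Those arrays hold no shift shared by many genes on 1 array, and no result is drawn from them here.

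Of the non-control probe sets, 20380 had 1 symbol in the platform annotation, 691 several and 1555 none, and 20351 of the first were matched to RefSeq. Members and gene lists were chosen with earlier results of these data known. Values on every array are given for the 3 members of complexes I, IV and V, and the 2 of complexes II and III, with the smallest unadjusted p. They are also given for the highest and lowest log2 fold change of each complex and for the tissue-restricted isoforms, and for each related mitochondrial list the 2 tested genes with the smallest p are named. Marker genes of other cell types are given where they stand beside a result. Cox17, Coa6, Cox19, Coa5 and the genes of mitochondrial biogenesis other than Ssbp1 and Pprc1 were named after their values were seen. So was the second probe set of Atp5k. Array summaries were compared by exact permutation. The alternatives were other scalings, pseudocounts, filters, probe set choices, limma options and arrays left out. The targeted gene is not reported here.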

Additional observations from a re-analysis of the deposited data

How the results depend on the processing

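No member passed the adjusted threshold in any of 20 alternative settings, and the lowest adjusted p of any member was 0.58. Of 433 recomputed values of the named members, 403 kept their sign and 30 reversed. Without rescaling, which moved the median of all probe sets to 0.29, the number of positive members was 73, 2 members did not overlap, and the medians were 0.30 for all members and 0.32, -0.00037, 0.32, 0.22 and 0.27 for complexes I to V. Reversed values in that setting were 0.072 for Ndufb1, 0.10 for Ndufa4, 0.057 for Sdha, 0.078 for Uqcrb, 0.029 for Atp5b, 0.10 for Atp5a1, 0.18 for Atp5h, 0.22 for Cox6b2, 0.18 for Atp5g1, 0.28 for Atp5g2 and 0.24 for Atp5g3. Median scaling gave 56 positive members, beside 66.5% of all tested probe sets, and medians of 0.10 for complex I and -0.22 for complex II. Its reversed values were 0.058 for Cox6b2, 0.057 for Atp5g2 and 0.013 for Atp5g3. Quantile normalization reversed Cox6b2 to 0.067 and Atp5g3 to 0.021. Array weights gave 20 positive members, beside 47.6% of all tested probe sets, with Sdhb at -0.017 and Atp5d at -0.050. Leaving out 1 array gave 19 to 46 positive members, beside 47.7% to 51.3% of all tested probe sets, and 10 to 23 members without overlap. The shares without overlap were 13.0% to 29.9% of members and 13.9% to 23.1% of all tested probe sets, since fewer arrays were compared. It reversed Sdhb to -0.011 without wildtype array 3, Atp5d to -0.095 without knockout array 1 and Atp5g1 to 0.0066 without knockout array 2, with Atp5g1 at its lowest, -0.31, without knockout array 1. Cox6b2 was -0.23 without knockout array 1 and 0.071, 0.11 and 0.13 without knockout array 2, knockout array 3 and wildtype array 1, and Atp5g2 was 0.024, 0.087 and 0.019 without knockout array 2, knockout array 3 and wildtype array 2. Without wildtype array 2 and knockout array 1, 16 members were positive, beside 49.0% of all tested probe sets. In that setting 32 members did not overlap (41.6%, beside 25.9% of all tested probe sets). The medians of complexes I and III were then -0.080 and -0.16, and Atp5d was -0.024. The mean of a gene's probe sets gave -0.19 for complex II and 0.0097 for Atp5h, and the second brightest gave -0.077 and 0.16. Without probe sets of less specific types, 20 of 56 members were positive. Apart from the arrays left out, the cause of these moves was not tested.

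After removing group means, same-numbered knockout and wildtype arrays correlated at 0.18, -0.03 and 0.08, against -0.29 to 0.26 for the other pairs. These values give no sign that the numbers pair the arrays, but with 3 arrays a group they cannot exclude it. With the replicate number as a block, 0 members passed, 36 were positive and the median was -0.0099. Having 3 arrays a group limits what could be detected, and Cox4i2 had the largest standard error of the tested members, 0.34.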
